A study of Mus musculus with 2 samples.

Results

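Fibroblast-marker cells of the mouse liver were examined in scRNA-seq (single-cell RNA sequencing) of liver NPCs (non-parenchymal cells, the liver cells other than hepatocytes). A cell was a member when it held at least 5 unique molecular identifiers (UMIs, each a counted mRNA molecule) of Dpt, Fbln1, Mfap4 and Clec3b together and at least 10 of Col1a1. It also had to hold at most 2 of Lrat plus Reln, at most 2 of Msln plus Upk3b and fewer than 10 UMIs per 10000 of Ptprb, Clec4g, Dnase1l3 and Fcgr2b together. These limits set aside stellate, mesothelial and endothelial cells. Among 13603 kept cells, 67 were members, 37 in the normal library and 30 in the fibrosis library. The members were thus chosen by the measured counts of these 13 genes, whose values are given as a description.

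Portal fibroblasts lie in the connective tissue around the portal vein, artery and bile duct, apart from the sinusoids. Their known markers include the ectonucleotidase Entpd2, elastin, gelsolin and several microfibril proteins, and adventitial fibroblasts around vessels express Pi16 and Cd34. Hepatic stellate cells, the other resident fibroblast-like cells, store vitamin A with the enzyme Lrat. Either kind can become a myofibroblast, a contractile cell with α-smooth muscle actin (Acta2) that deposits collagen.

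Both mice were male C57BL/6 animals of 8 weeks with no engineered allele named in the labels. The fibrosis mouse was injected with carbon tetrachloride (CCl4), 15% in olive oil at 0.6 µl per g, 2 times a week for 6 weeks, and its cells were taken 48 h after the last injection. The normal mouse was given olive oil. Each condition had 1 mouse and 1 library, so the treatment cannot be told apart from other differences between the mice or the libraries, no difference was tested, and every interval is a 95% interval for counting error only.

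The members made up 0.495% of 7471 kept cells in the normal library (exact binomial interval 0.349 to 0.682%) and 0.489% of 6132 in the fibrosis library (0.33 to 0.698%). Fibrosis members were deeper, with a median of 19064.5 UMIs (2719 to 66683) against 7206 (3422 to 29880), and together held 612533 against 315783 UMIs. The rule worked on raw UMIs, so this depth bears on it. The marker sum and Col1a1 limits were passed by 51 normal and 231 fibrosis cells, and Lrat plus Reln then removed 1 and 180 of them. The mesothelial limit removed 8 and 20 more, and the endothelial limit 5 and 1. Next to the limits, 11 fibrosis members held exactly 2 UMIs of Lrat plus Reln and 4 cells outside held 3, while no normal member held 2 and no normal cell that met the other limits held 3. With Lrat plus Reln at 0 the fibrosis library kept 9 members, without the mesothelial limit 46, and after thinning every cell to 5000 UMIs 49. A mitochondrial share under 5% left 14 normal and 8 fibrosis members.

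The deposited libraries held 44062632 UMIs in 8130 normal and 53288463 in 6437 fibrosis cells, with 15 barcodes in common, none of them a member's. Lymphoid cells (at least 3 UMIs of B cell or of T and NK cell genes), which should lack fibroblast transcripts, gave the level of RNA outside its cell of origin. In fibrosis it included collagen mRNA, with Col1a1 at 8.68 UMIs per 10000 in 410 lymphoid cells against 0.0721 in 1173 normal ones. Hepatocyte mRNA differed the other way: 6 hepatocyte genes summed to 119 UMIs per 10000 in normal and 13.4 in fibrosis lymphoid cells, and to 58 and 4.96 in members. A limit of at most 2 UMIs of the macrophage genes Lyz2, C1qa and Csf1r together left 1092 normal and 164 fibrosis lymphoid cells. In these the fibrosis level of Col1a1 was 2.28 and the hepatocyte sums were 124 and 24.2. Lymphoid levels below come from all lymphoid cells unless this limit is named. Each fold below stands on UMIs summed over the members of a library and divided by their total (a level per 10000 UMIs), and is a ratio of fibrosis over normal unless stated.

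The normal members carried the portal fibroblast markers, and most of these were lower in the fibrosis members. Gsn (gelsolin, an actin-severing protein, chromosome 2, 35256380 to 35307892, GRCm38) ranged from 8.03 to 366 UMIs per 10000 in normal members with a median of 117, and from 0 to 17.5 with a median of 4.7 in fibrosis members. All 37 normal members held Gsn, and 22 of the 30 fibrosis members lay below the lowest normal member. The summed level was 114 against 5.22, a ratio of 0.0459 (0.0408 to 0.0515). Clec3b (tetranectin, chromosome 9, 123150946 to 123157432) had 463 UMIs in 36 of 37 normal members and 1 UMI in the 30 fibrosis members, although their total was larger. After thinning each cell to 2000 UMIs, Clec3b was seen in 81.1% of normal members (64.8 to 92%) and 3.33% of fibrosis members (0.0844 to 17.2%), against 0.175% and 0.545% of lymphoid cells. Entpd2, known to mark portal fibroblasts, stood at 2.34 against 0.359.

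**Figure D1:**
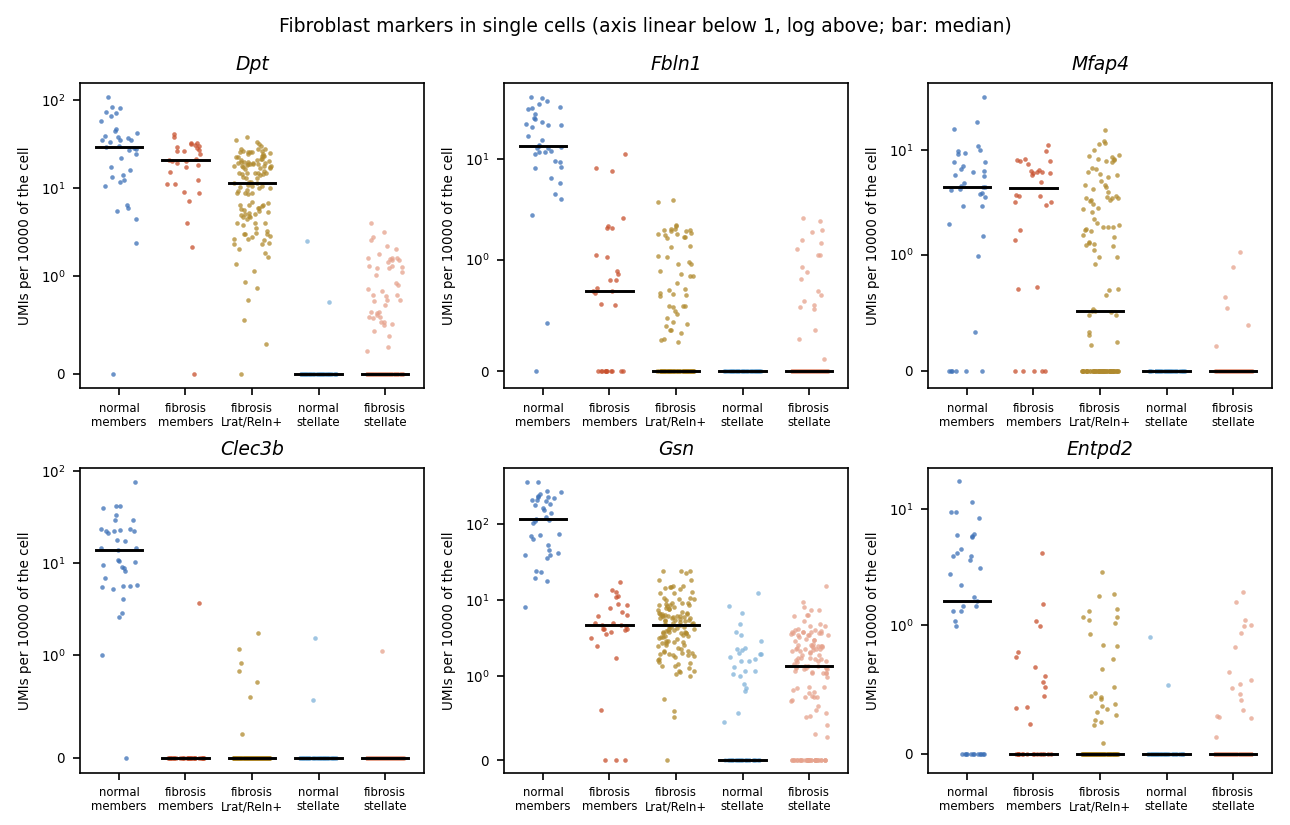
UMIs per 10000 UMIs of each cell for 6 fibroblast markers in normal members (37 cells), fibrosis members (30), fibrosis cells that met the other limits but held at least 3 UMIs of Lrat plus Reln (124), and stellate cells of the normal (57) and fibrosis (133) library; each point is a cell, the bar is the median, and the axis is linear below 1 and logarithmic above. Dpt and Mfap4 overlap between normal and fibrosis members, while Clec3b is at 0 in 29 of 30 fibrosis members and every fibrosis member lies below the normal median for Gsn, Clec3b and Fbln1.

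Dpt (dermatopontin, a matrix protein that binds decorin) and Mfap4 (a microfibril-associated protein) accounted for most of the marker sum in fibrosis members. Dpt ranged from 0 to 108 in normal members (median 29.2) and from 0 to 40.5 in fibrosis members (median 20.5). Mfap4 had medians of 4.48 and 4.38, so these groups overlapped throughout. Fbln1 (fibulin 1, a matrix and basement membrane protein) went from a summed level of 15.2 to 1.32. Of the 12 portal fibroblast markers, 4 were part of the rule. Of the other 8, all compared, 7 were at least 2-fold lower in fibrosis members and 1, Fbln2, lay between at 1.6, with a median ratio of 0.166. Among 4696 genes compared, 10.1% were lower and 16.0% higher by at least 2-fold, with a median ratio of 1.11. Cd34 went from 7.85 to 1.4 and Vit (vitrin) from 2.82 to 0.0653. Aspn (asporin) had no UMI in fibrosis members, a ratio of at most 0.0552 with a floor of 3 UMIs.

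The label was set beside the 8 listed markers outside the rule. This is a description, since the list was chosen with earlier results known. The fibroblast marker sum also chose both members and stellate cells. In the normal library 7 of these markers were at least 2-fold higher in members than in the stellate cells defined below and none was lower. Of all genes compared there, 13.9% were higher and 13.1% lower. In fibrosis members the picture was mixed. Vit had 4 UMIs and Aspn none in all 30, while Gsn (320 UMIs) and Eln (292) were each found in 27 of the 30, and Cd34 in 23. The 4 markers that could be compared there (Cd34, Eln, Fbln2 and Gsn) were each higher in members than in fibrosis stellate cells, where 9.03% of all genes compared were. Against 124 fibrosis cells that held Lrat or Reln beside the fibroblast markers, described below, 4 markers were compared. Of these Fbln2 was higher in members and 3 lay between the limits, with a median ratio of 1.17. Because most markers were lower in fibrosis than in normal members, the former are called fibrosis members here and given no cell type name. Cells with the normal pattern were also looked for outside the rule. In the normal library 53 kept cells held at least 3 UMIs of Clec3b, of which 36 were members and 9 held at least 3 of Msln plus Upk3b, mesothelial genes. In the fibrosis library 21 cells did, all with at least 3 of Msln plus Upk3b and none a member. Clec3b of at least 3 together with Gsn of at least 20 was found in 41 normal cells and 1 fibrosis cell.

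Stellate cells were taken as cells with at least 3 UMIs of Lrat plus Reln, under 5 of the fibroblast marker sum and the same mesothelial and endothelial limits, which gave 57 normal and 133 fibrosis cells. Of these, 15 normal and 13 fibrosis cells held no UMI of Lrat and none of Hand2, and entered through Reln. Normal stellate cells also held more endothelial (9.4 UMIs per 10000) and mesothelial-list RNA (21.1) than normal members (2 and 0.507), and the part of such RNA in the comparisons was not tested. Within the normal library, members and stellate cells were far apart, and this is a description because Lrat, Reln and the fibroblast marker sum chose both groups and Col1a1 chose the members. Of 4515 genes, 13.9% were higher and 13.1% lower in members by at least 2-fold, 27.1% in all. The largest ratios belonged to Mgp (matrix Gla protein, an inhibitor of calcification) at 18.1 against 0.0168 UMIs per 10000, Sfrp1 (a secreted Wnt antagonist) at 18.6 against 0, and Htra1 (a secreted serine protease) at 4.21 against 0.0168. Pi16 (3.23), Ptn (the growth factor pleiotrophin, 3.17), Crispld2 (3.2), Olfml2b (2.95), Nbl1 (a BMP antagonist, 2.38) and Cd34 (7.85) had at most 1 UMI among the 57 stellate cells. Col15a1, a basement membrane collagen, stood at 4.62 against 0.0335.

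Genes higher in normal stellate cells included Rgs5 (a regulator of G-protein signalling known from pericytes, 14.9 against 0.0633), Tmem56 (14.3 against 0.253), Vipr1 (the VIP receptor, 7.66 against 0), Angptl6 (6.17 against 0.0317) and Colec10 (a collectin, 5.86 against 0.0633). Of the 13 stellate markers outside the rule, 11 were at least 2-fold lower in normal members, with a median ratio of members over stellate cells of 0.0283. Desmin (Des) was among those between the limits, at 1.77 in members and 1.17 in stellate cells. Fibrillar collagens were also higher in members, Col3a1 at 95.9 against 6.3 and Col1a2 at 62.7 against 3.82. Nothing is read from this, since members had to hold at least 10 UMIs of Col1a1, which 1 of the 57 stellate cells did.

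Members of the fibrosis library differed from normal members by 2-fold or more in 26.1% of 4696 genes. For stellate cells of the same libraries that share was 15.3% of 4486 genes, with 10.6% higher and 4.77% lower. Stellate cells had to hold under 5 of the fibroblast marker sum. That left out 124 fibrosis cells with Col1a1 of at least 10, described below, and no such normal cell. The shares of members and stellate cells are therefore not read against each other. Among the genes lower in fibrosis members, beside the markers above, 3 were held by part of the normal members. Mmp3 (stromelysin 1, a matrix protease) had 195 UMIs in 14 of 37 normal members and 1 UMI in fibrosis members, a ratio of 0.00264 (6.66e-05 to 0.0149). The elastic microfibril gene Mfap5 had 136 UMIs in 13 normal members and 1 in fibrosis members, and Pi16 had 102 in 14 members and 1. Each of these 3 genes was thus at 0 in more than 20 normal members, and its level rested on some of the cells.

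Several other genes lower in fibrosis members were broadly detected. Sfrp1 was found in 34 of 37 normal members (median 13 per 10000, highest 77) and in 12 of 30 fibrosis members (median 0, highest 12.5), with a ratio of 0.022 (0.0141 to 0.0327). Inmt, a methyltransferase of small amines, had 262 UMIs in 32 normal members and 7 in fibrosis members. Ogn (osteoglycin) had 244 UMIs in 31 normal members and 11 in fibrosis members, and the proteoglycan gene Podn 83 in 28 and 5. Penk (the opioid precursor proenkephalin) had 82 UMIs in 25 normal members, C7 (a terminal complement component) 103 in 24 and Cilp (a cartilage matrix protein) 130 in 20. None of these last 3 had a UMI in fibrosis members, and with a floor of 3 UMIs the ratios were at most 0.0189, 0.015 and 0.0119. Also lower were Galnt15 (0.012), Ntrk2 (the BDNF receptor, 0.0262), Pi15 (0.0297) and Stc2 (stanniocalcin 2, 0.0375).

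The genes with the largest ratios of fibrosis over normal included matrix, adhesion and contractile genes. Ltbp2, which binds fibrillin microfibrils (chromosome 12, 84783212 to 84876532), had 9 UMIs in 8 normal members and 625 in 28 of 30 fibrosis members. Per cell it ranged from 0 to 2.18 UMIs per 10000 (median 0) in normal members and from 0 to 26.8 (median 9.68) in fibrosis members, and 27 of the 30 lay above the highest normal member. The ratio was 35.8 (18.7 to 78.7). Cadm4, a cell adhesion molecule, had 165 UMIs in 26 fibrosis members and none in normal members (at least 28.4-fold). The adhesion gene Alcam (CD166) had a median of 20.4 UMIs per 10000 in fibrosis members and 0 in normal members, where 15 of its 18 UMIs came from 1 cell.

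Lhx2, a homeobox factor of stellate cells, had 67 UMIs in 22 fibrosis members and 1 UMI in normal members. The T-box factor Tbx20 was found in 26 fibrosis members at a summed level of 3.46 against 0.19. Unc5b (a netrin receptor, 2.29 against 0.127), Gucy1a1 (a subunit of the nitric oxide receptor, 5.67 against 0.412), Etl4 (1.98 against 0.0633), Mtus2 (1.21 against 0.0633) and Hk2 (hexokinase 2, 1.03 against 0.0633) followed. Casq2, a calcium-binding protein known from the heart, had 85 UMIs in 19 fibrosis members and none in normal ones. The ratio of Hk2 was 16.2, and 2.47 when cells were thinned to 5000 UMIs before the rule.

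Beside Acta2, described with the contractile genes, the named genes higher in fibrosis members included 3 that rested on few cells. Saa3 (an acute-phase protein) had the largest ratio of the named genes, 595 (107 to 23519), from 1154 UMIs of which 503 were in 1 cell. Its level in fibrosis members was 18.8, in fibrosis lymphoid cells 8.05 (0.908 in those under the macrophage limit), and its ratio was 7.25 without the members that held at least 3 UMIs of Fndc1. Cxcl5 (a neutrophil chemokine) had 129 UMIs in 6 fibrosis members and 1 in normal members. Lyz2 (lysozyme of macrophages) had 343 UMIs, 154 of them in 1 member. Its level of 5.6 lay under that of fibrosis lymphoid cells, 27.1, though above the 1.57 of those under the macrophage limit, and its ratio was 2.75 without the 4 members that held at least 10 UMIs.

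Markers of macrophages were higher in fibrosis, in members and in lymphoid cells alike. All 7 macrophage markers compared were at least 2-fold higher, where 16.0% of all genes compared were, with a median ratio of 5.83, or 3.16 without those 4 members. The list's 8 genes all had UMIs in both groups, and summed to 2.38 UMIs per 10000 in normal members (0 to 15.4 per cell) and 15.3 in fibrosis members (2.66 to 124 per cell). In all lymphoid cells they summed to 9.6 and 70.4, and to 4.95 and 19.3 in those under the macrophage limit, which uses genes of this kind. The part of these transcripts in the other ratios was not tested beyond leaving such cells out. Among 6 mesothelial genes outside the rule, Upk1b and Bnc1 were at 0 in all members and Wt1 made up most of the sum, 0.507 in normal members (0 to 5.2 per cell) and 3.48 in fibrosis members (0 to 11.8 per cell). Wt1 (a zinc finger factor of mesothelial and stellate cells) was found in 3 normal and 29 fibrosis members. Cholangiocyte genes summed to 0.633 and 0.571 with 2 of 5 detected in each group, and lymphoid genes to 0.728 and 0.473.

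Of 8 contractile genes compared, 6 were at least 2-fold higher in fibrosis members and none lower, where 16.0% of all genes compared were higher and 10.1% lower. The median ratio was 4.57, or 1.99 in the 9 fibrosis members with Lrat plus Reln at 0. Acta2 (chromosome 19, 34241090 to 34255590) had 13 UMIs in 3 normal members, 10 of them in 1 cell, and 840 in 26 of 30 fibrosis members. Per cell it ranged from 0 to 6.53 UMIs per 10000 (median 0) in normal and from 0 to 61.5 (median 4.66) in fibrosis members, with 14 of the 30 above the highest normal member. The ratio of summed levels was 33.3 (19.4 to 62.8), and 9.27 without the mesothelial limit or 117 when the top cell of each library was left out. Tagln (transgelin, an actin-binding protein) stood at 0.602 and 13.2, Myh11 (smooth muscle myosin heavy chain) at 0.0317 and 1.26, Tpm1 (tropomyosin 1) at 2 and 8.42 and Actn1 (α-actinin 1) at 1.08 and 5.29. Myl9, a myosin light chain, and Tpm2 had ratios of 1.89 and 1.88.

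The sequences before the start of 3 contractile genes are shown because most genes of this list were higher in fibrosis members. They were read from RefSeq promoters of GRCm38.p6, which matched 7 of the 10 listed genes. Capitals mark the CArG box, the site of serum response factor, whose consensus reads the same on both strands. Only exact matches to the consensus were searched for, and boxes that differ from it by a base were not counted. An exact match was present in the window of 250 bases before to 50 after the start in 1.63% of 32851 promoters and in 2 of the 7, Myl9 at 161 and Cnn2 at 56 bases before the start, each counted from the box's first base. Each line gives the 250 bases before the start, 5′ to 3′ on the gene's strand, at chr19:34255374-34255623 (minus strand) for Acta2, chr2:156775214-156775463 (plus) for Myl9 and chr10:79988350-79988599 (plus) for Cnn2. The start used here is that of RefSeq, which for Acta2 lies inside the gene span given above, so most of the window shown is within that span.
Acta2: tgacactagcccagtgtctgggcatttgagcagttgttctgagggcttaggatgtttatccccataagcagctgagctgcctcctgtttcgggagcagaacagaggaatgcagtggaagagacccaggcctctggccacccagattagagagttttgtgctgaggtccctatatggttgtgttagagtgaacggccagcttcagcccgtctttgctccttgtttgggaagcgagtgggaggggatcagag
Myl9: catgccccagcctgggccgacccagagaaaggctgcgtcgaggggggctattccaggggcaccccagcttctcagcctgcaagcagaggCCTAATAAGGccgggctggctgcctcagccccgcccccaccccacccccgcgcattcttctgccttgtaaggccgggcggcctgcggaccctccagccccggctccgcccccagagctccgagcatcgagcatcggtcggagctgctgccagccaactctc
Cnn2: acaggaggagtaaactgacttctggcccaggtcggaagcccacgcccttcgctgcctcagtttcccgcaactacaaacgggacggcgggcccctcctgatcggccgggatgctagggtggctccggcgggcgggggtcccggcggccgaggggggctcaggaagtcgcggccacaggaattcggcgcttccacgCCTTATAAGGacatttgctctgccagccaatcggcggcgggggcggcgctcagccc
Cnn2 (calponin 2) had a ratio of 2.47, and those of Myl9 and Acta2 are given above. A match is a description of letters and not a tested site.

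**Figure D2:**
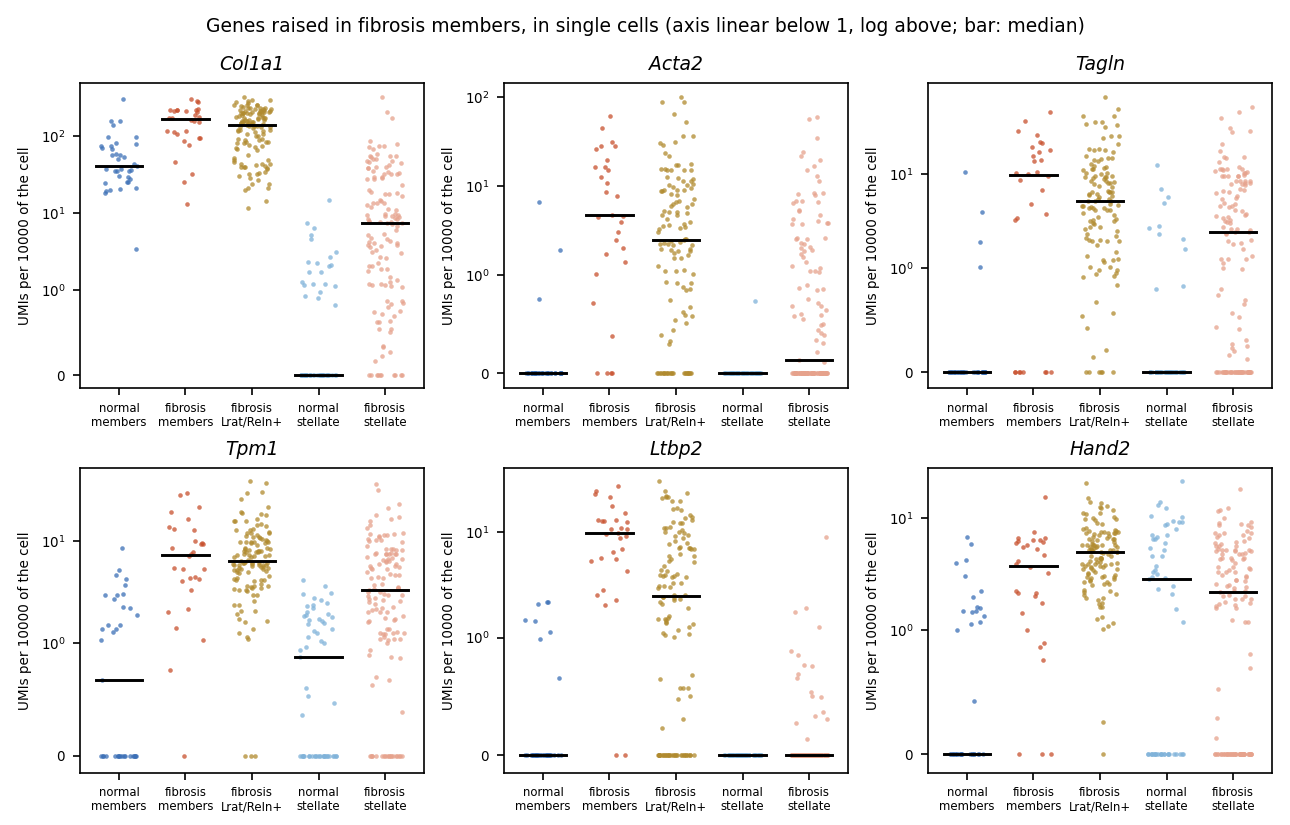
UMIs per 10000 UMIs of each cell for Col1a1, Acta2, Tagln, Tpm1, Ltbp2 and Hand2 in the same 5 groups of cells; points are cells, bars are medians, and the axis is linear below 1 and logarithmic above. Median Acta2 is 0 in normal members and 4.66 in fibrosis members, and median Ltbp2 is 0 and 9.68.

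Fibrillar collagens differed in both directions between the libraries. Col1a1, a gene of the rule, stood at 49.1 in normal and 158 in fibrosis members, where 27 of 30 cells lay above the normal median. Col1a2 ranged from 11.7 to 321 (median 51.3) in normal and from 20.1 to 309 (median 185) in fibrosis members, with a ratio of summed levels of 2.89 (2.76 to 3.03). Col5a2 had a ratio of 2.3 and Col5a1 of 1.81. Col3a1 stood at 95.9 and 83.7, a ratio of 0.873 (0.834 to 0.913), and Col5a3 at 1.77 and 0.539. Of 5 fibrillar collagens compared outside the rule, 2 were thus higher and 1 lower by at least 2-fold, where 16.0% and 10.1% of all genes compared were. Levels are per 10000 UMIs and not per length, so they are not compared between genes.

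The other collagens split in a like way. Basement membrane Col4a1 went from 4.5 to 23.6 and Col4a2 from 1.74 to 12.2. Col8a1 had a ratio of 14.3, the fibril-associated Col12a1 of 11.4 and the microfibrillar Col6a3 of 2.44. Col6a1 and Col6a2 had ratios of 1.01 and 0.953. Col14a1, also fibril-associated, went from 17.9 to 8.72. With Col18a1 as the other lower gene, 5 of 11 were higher and 2 lower by at least 2-fold, with a median of 1.29 (2.33 at a mitochondrial share under 5%), where 16.0% and 10.1% of all genes compared were. Of 8 genes of collagen processing, Plod2 (lysyl hydroxylase 2, 3.48) and Plod1 (2.27) were higher and Pcolce (procollagen C-proteinase enhancer, 0.399) lower, counts near those shares. The crosslinking enzymes Lox, Loxl1 and Loxl2 had ratios of 1.57, 1.25 and 1.66.

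Small leucine-rich proteoglycans bind collagen fibrils and growth factors, and their genes were lower or between the limits. Dcn (decorin) ranged from 20.7 to 263 UMIs per 10000 (median 118) in normal and from 6.03 to 128 (median 36.1) in fibrosis members. Its ratio was 0.324 (0.307 to 0.342), while Lum (lumican) had 1.25 and Bgn (biglycan) 1.39. Dcn, Ogn, Aspn and Podn were the 4 of 8 that were at least 2-fold lower (Aspn is also on the portal fibroblast list), and none was higher, where 10.1% of all genes compared were lower and 16.0% higher. With UMIs per cell in place of per 10000, the median of the list moved from 0.479 to 1.15, since fibrosis members held 2.39 times as many UMIs a cell.

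Of 14 elastic fibre and microfibril genes, 3 were at least 2-fold higher and 5 lower, where 16.0% and 10.1% of all genes compared were. The list's median was 0.943, or 0.597 at a mitochondrial share under 5% and 2.26 as UMIs per cell. Elastin (Eln) went from 10.2 to 4.77, fibrillin 1 (Fbn1) from 8.42 to 3.95, Ltbp4 from 8.65 to 1.34, Efemp1 (fibulin 3) from 3.52 to 0.441 and Mfap5 as above. Ltbp2, Fbn2 (fibrillin 2, 2.47) and Emilin1 (2.38) were higher. Ltbp1 and Ltbp3 had ratios of 0.992 and 1. Levels of 4 members of the Ltbp family, which bind latent TGF-β or fibrillin, thus ranged in their ratios from 0.155 for Ltbp4 to 35.8 for Ltbp2.

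**Figure D3:**
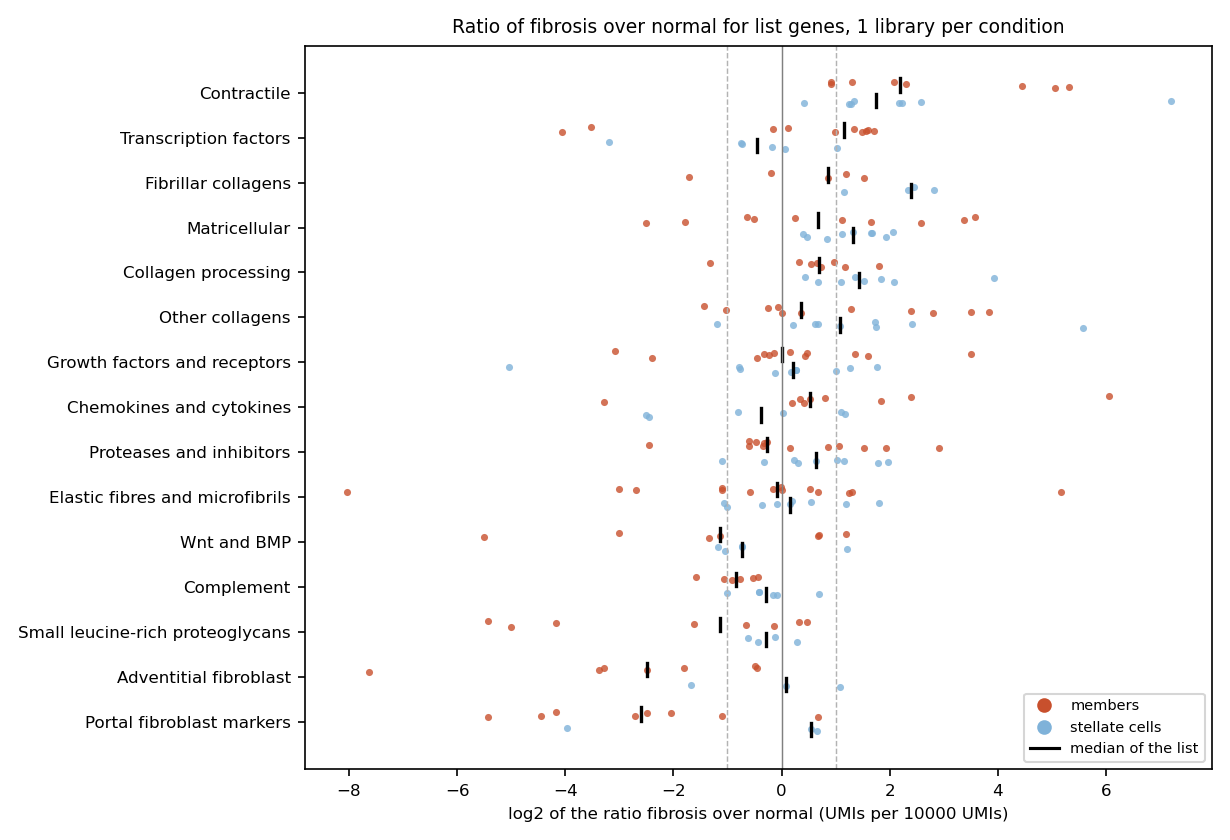
Log2 ratio of fibrosis over normal for the genes of 15 lists, in members (orange) and in stellate cells (blue), each point a gene with at least 0.5 UMIs per 10000 in either library and outside the rule; black bars are list medians, dashed lines mark 2-fold, and a gene at 0 in 1 library is drawn at its bound. The contractile list has a member median of 4.57 as a ratio, and the portal fibroblast list one of 0.166.

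Among matricellular and adhesive matrix genes, 5 of 10 were higher and 2 lower, where 16.0% and 10.1% of all genes compared were. The list's median of 1.68 was 0.864 in the 9 fibrosis members with Lrat plus Reln at 0 and 4.01 as UMIs per cell. Sparc, which binds collagen, ranged from 4.35 to 304 (median 43.7) in normal and from 15.6 to 200.4 (median 114) in fibrosis members. Thbs1 (thrombospondin 1, an activator of latent TGF-β) went from 0.443 to 5.26 and Tnc (tenascin C) from 0.127 to 1.32. Fn1 (fibronectin) had summed levels of 12.7 and 39.8 and medians per cell of 2.17 and 4.18, with 256 UMIs per 10000 in the highest fibrosis member. Ctgf (1.93 to 0.343) and Spon1 (2.19 to 0.637) were lower. Of 13 proteases and inhibitors, Mmp14 (a membrane collagenase, 3.83), Timp1 (an inhibitor of metalloproteinases, 7.51), Adamtsl2 (2.88) and Ctsk (cathepsin K, 2.1) were higher, and Htra3 (0.184) was lower. The median of that list was 0.835, or 1.58 at a mitochondrial share under 5%, with 16.0% of all genes compared being higher, and 255 of the 306 UMIs of Timp1 in fibrosis members were in 6 cells.

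All 6 complement genes, which fibroblasts express in many tissues, had ratios below 1, and Serping1 (C1 inhibitor) was past 2-fold at 0.479. C3 stood at 35.3 and 18.8. The list's median was 0.558, or 1.34 as UMIs per cell. Among chemokines and cytokines 3 of 9 compared were higher, Cxcl5, Cxcl1 (0.602 to 3.18) and Ccl7, and Cxcl14 (0.95 to 0.098) was lower. The list's median was 1.44, and 0.91 without members that held at least 3 UMIs of Fndc1 or 0.525 at a mitochondrial share under 5%. Cxcl12, which binds Cxcr4 on leukocytes, stood at 15.9 and 18.2. Of 12 growth factor genes compared, Hgf (hepatocyte growth factor, 0.19 to 2.17), Pdgfrb (a PDGF receptor, 2.03 to 5.21) and Tgfb1 (0.253 to 0.767) were higher. The binding proteins Igfbp3 (9.06 to 1.08) and Igfbp6 (4.53 to 0.865) were lower, and Pdgfra had a ratio of 1.11. With a median of 1.01, the growth factor counts lay near the 16.0% higher and 10.1% lower of all genes compared.

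Of 7 Wnt and BMP genes compared, Wnt4 (2.29) was higher and Sfrp1, Sfrp2 (0.396), Rspo3 (0.455) and Bmp4 (0.124) were lower, where 16.0% of all genes compared were higher and 10.1% lower. The median of this list, 0.455, depended on the setting: it was 1 with a fibroblast sum of at least 10, 1.12 with Lrat plus Reln of at most 5, 1.24 after thinning, 1.09 as UMIs per cell and 1.59 without the Fndc1 members. Among 10 transcription factors, Tcf21 (a factor of stellate cells and other mesenchyme, 2.97), Foxf1 (3.02), Gata4 (2.81), Foxs1 (3.29) and Nr4a1 (2.53) were higher, while Osr1 (1.36 to 0.0816) and Ebf1 (3.55 to 0.31) were lower. Prrx1, a factor of limb and other mesenchyme, had a ratio of 1.09, and the list a median of 2.25, or 1.32 without the same members and 1.05 at a mitochondrial share under 5%. Adventitial genes, a list that shares Cd34 with the portal fibroblast markers, were lower in 5 of 7, with Ly6a (Sca-1) at 3.8 and 0.392 and Cd248 (endosialin) at 3.01 and 0.865. The median of that list was 0.179, and 0.557 without the mesothelial limit.

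Of 7 stellate markers compared outside the rule, Lhx2, Hand2 and Hgf were at least 2-fold higher in fibrosis members and Ecm1 (0.454) lower, where 16.0% and 10.1% of all genes compared were. The list's median was 1.56, or 5.34 at a mitochondrial share under 5%. Hand2, a helix-loop-helix factor of stellate cells, ranged from 0 to 6.82 (median 0) in normal members and from 0 to 15.6 (median 3.78) in fibrosis members. Its summed level of 3.92 in fibrosis members lay beside 2.41 in fibrosis stellate cells and 0.564 in lymphoid cells. Rgs5 (0.359), Colec11 (0.343) and Colec10 (0.147) stayed under the lymphoid levels of 1.66, 0.477 and 0.301.

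Stellate cells of the fibrosis library stood apart from fibrosis members. Of 4764 genes, 9.03% were higher and 10.9% lower in members by at least 2-fold, 19.9% in all. Col6a5 (2.87 against 0.00416), Fndc1 (a fibronectin type III protein, 2.42 against 0.00833), Cdh11 (cadherin 11, 2.38 against 0.0125), Cyp1b1 (1.5 against 0.00833), Slit3 (a guidance ligand, 1.49 against 0.00833) and Col6a6 (1.81 against 0.0125) had the largest ratios, together with Cxcl5, Fndc5, Cadm4 and Fxyd6. Lower in members were Rgs5 (0.359 against 16.7), Tmem56 (0.114 against 4.4), Sorbs2 (0.0816 against 2.72) and Bco1, a carotenoid-cleaving enzyme (0 against 1.13). The hepatocyte genes Hamp, Itih2, Fgb, Apoa1 and Ambp were also lower. Apoa1 was at 0.359 in members, 11 in stellate cells and 1.35 in lymphoid cells of that library. The hepatocyte list summed to 86.6 UMIs per 10000 in stellate cells and 4.96 in members. Macrophage genes summed to 47.7 and 15.3, cholangiocyte genes to 3.77 and 0.571 and endothelial genes to 3.39 and 2.55. Mesothelial (0.337 and 3.48) and lymphoid genes (0.362 and 0.473) went the other way. The part of such RNA in the comparison was not tested. Of the portal fibroblast markers, all 4 compared were higher in members than in stellate cells, with a median of 5.56 in place of 36.9 over 8 genes in the normal library.

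A further group stood closer. In fibrosis, 124 cells met every limit except that on Lrat plus Reln, of which they held a median of 23.5 UMIs and at most 292, while the normal library held no such cell. Lrat plus Reln summed to 17.1 UMIs per 10000 in these cells, 0.522 in fibrosis members and 2.62 in lymphoid cells. This group was examined after its number had been seen. It passed the same marker-sum and Col1a1 limits as members. Stellate cells had to hold under 5 of the marker sum, and 59 of the 133 in fibrosis held at least 10 UMIs of Col1a1. Its likeness to members is thus partly set by the limits, which use Col1a1, Dpt and Clec3b, and is a description. Of 4415 genes, 3.28% were higher and 3.19% lower by at least 2-fold in members than in these Lrat/Reln+ cells, 6.48% in all. Col1a1 stood at 158 in members and 130.3 in Lrat/Reln+ cells, Acta2 at 13.7 and 9.91, Dpt at 18 and 9.84, Gsn at 5.22 and 4.84 and Clec3b at 0.0163 and 0.0276. Median depths were 19064.5 and 19392.5. None of the 8 contractile and none of the 5 fibrillar collagen genes was past 2-fold either way. Of 4 portal fibroblast markers compared, Fbln2 was higher in members and 3 lay between the limits, with a median of 1.17. The count of genes higher in members was 342 rather than 145 with Lrat plus Reln at 0, where 9 members remained.

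The genes with the largest and smallest ratios of fibrosis members over Lrat/Reln+ cells follow, and some of them rested on few cells. Cxcl5 (2.11 against 0.0103), Fndc1 (2.42 against 0.031), Saa3 (18.8 against 0.255), Slit3 (1.49 against 0.031), Ccl7 (1.13 against 0.0379), Itih5 (1.67 against 0.103), Flrt2 (1.55 against 0.134), C3 (18.8 against 2.17), Cdh11 (2.38 against 0.276) and Ccl2 (2.06 against 0.265) were higher in members. The 6 fibrosis members with at least 3 UMIs of Fndc1 held all 129 UMIs of Cxcl5, 146 of 148 of Fndc1 and 1138 of 1154 of Saa3. Lower were Rgs5 (0.359 against 8.08), Ifitm1 (0.18 against 3.18), Plvap (0.408 against 5.89), Rspo3 (a Wnt amplifier, 0.245 against 3.28), Samd5, Tgfbi (0.849 against 9.36), Colec11, Clca3a1 and Colec10. Rgs5 and the collectins Colec10 and Colec11 are known from stellate cells, and the Lrat plus Reln limit chose both groups.

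Members were not uniform within a library. Fndc1 and Ptn, examined after their values had been seen, marked separate cells at a limit of 3 UMIs. At least 3 UMIs of Fndc1 were held by 13 of 37 normal and 6 of 30 fibrosis members, at least 3 of Ptn by 12 and 12, and both by none in either library, which left 12 and 12 with neither. In normal members the 13 Fndc1 cells had more Gsn (188 against 73.7 UMIs per 10000 in the other 24), Pi16 (7.73 against 0.782), Dpt (47.6 against 23), Clec3b (21 against 11.2) and Vit (5.49 against 1.37). They had less Hand2 (0.36 against 1.52), Cxcl12 (8 against 20.1) and Eln (6.56 against 12.2). Their median depths were 7206 and 7135 UMIs.

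**Figure D4:**
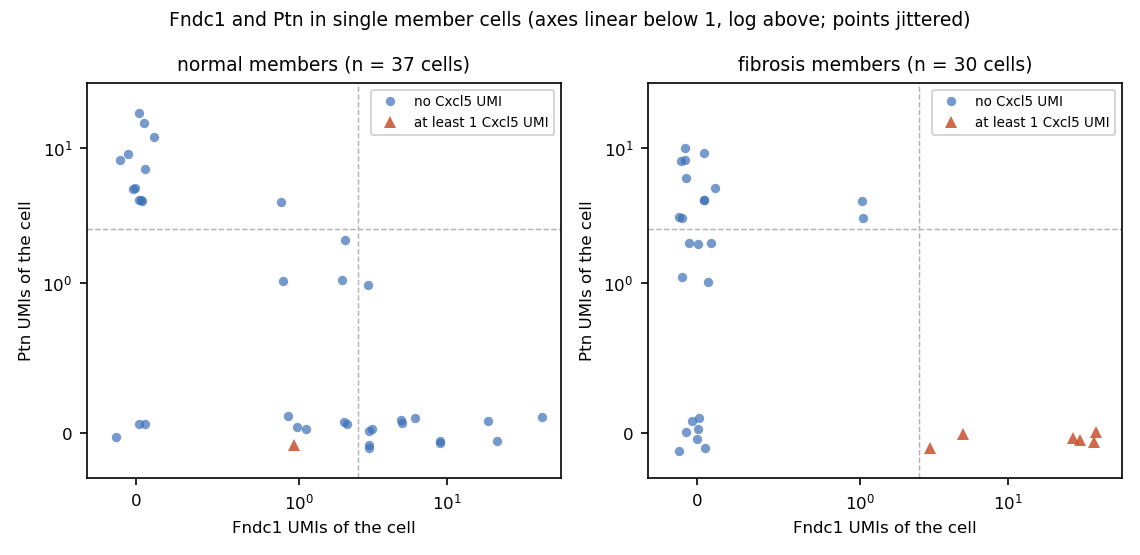
UMIs of Fndc1 against UMIs of Ptn in each normal (left, 37 cells) and fibrosis (right, 30 cells) member; triangles mark cells with at least 1 UMI of Cxcl5, dashed lines the limit of 3 UMIs, axes are linear below 1 and logarithmic above, and points are jittered. No cell lies past both limits, and in fibrosis all 6 cells with Fndc1 of at least 3 hold Cxcl5.

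In fibrosis members the 6 Fndc1 cells held all 129 UMIs of Cxcl5, from 1 to 41 a cell, and the other 24 held none. They also had more Timp1 (15.8 against 1.13 UMIs per 10000), Il33 (an alarmin cytokine, 3.23 against 0.0443) and Fbln1 (2.86 against 0.775). Lower in them were Col1a1 (90.7 against 181), Acta2 (3.98 against 17.2), Hand2 (0.994 against 4.96), Mfap4 (0.311 against 5.16), Gsn (1.55 against 6.53) and Robo2 (a Slit receptor, 0.0621 against 2.04). Clec3b and Pi16 had no UMI in the 6 cells. Median depths were 24644 and 18346.5. The Fndc1 cells of the fibrosis library thus stood at 1.55 for Gsn and those of the normal library at 188.

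Across the 37 normal members, each thinned to 2000 UMIs, the genes whose pattern was most like that of Gsn among 735 compared were Dcn (Spearman rho 0.69), Ogn (0.62), Olfml2b (0.61) and Tnxb (tenascin X, 0.6). Ptn lay at the other end with -0.65. The rho with depth before thinning was -0.43. These cells share a mouse and a library, and the values are a description.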

How the data were processed

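Liver NPCs of 1 normal and 1 CCl4-treated mouse were sequenced with 10x Genomics v3 chemistry. The deposited values were UMI counts per gene and cell, made by the authors with Cell Ranger 3.0.1 on mm10 and not normalized. Cells with under 10% mitochondrial UMIs and more than 200 genes were kept. Counts were summed over a group's cells and given per 10000 UMIs with exact Poisson intervals, and ratios carried exact conditional intervals (95%). A gene was compared when it reached 0.5 UMIs per 10000 in either group, and counted as higher or lower past 2-fold. The members and gene lists were chosen with earlier results of these data known. Besides list genes, the text names the 15 largest and 15 smallest ratios in members (10 and 10 against stellate cells) among genes of at least 1 UMI per 10000, found in at least 20% of the cells, at least 3 times the lymphoid level and a log2 ratio at least 1 from the lymphoid one, both taken from lymphoid cells under the macrophage limit. The same rule was applied to the Lrat/Reln+ cells. Mitochondrial, ribosomal, haemoglobin, immunoglobulin and predicted genes were left out. Some genes that the rule would name are not reported here. Shares of cells used cells thinned to 2000 UMIs. The study's methods state that doublets were excluded with Scrublet. Scrublet, run in scanpy 1.11.5 at a rate of 0.06, called 0 cells in either library and so removed none, and 1 of 67 members was among the 5% with the highest scores. The calls were tested on simulated data: of 4051 genes, 100 of 100 raised and 100 of 100 lowered 4-fold were called, with 95 of 3851 unchanged genes. The simulated cells shared a common profile, and only genes of at least 1 UMI per 10000 were changed. The simulation thus held counting error but no spread between cells or mice, and its rate of calls does not carry over to the data. Python 3.11.15, numpy 2.4.6, scipy 1.17.1, pandas 2.3.3 and matplotlib 3.10.9 were used.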

Additional observations from a re-analysis of the deposited data

Results flagged for a closer look

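For 5 of 139 listed or named genes compared in both, the ratio of fibrosis over normal was past 2-fold in opposite directions in members and in stellate cells of the same libraries. Over all 3812 genes compared in both, 5 were higher in members and lower in stellate cells and 17 the other way. Each ratio rests on 1 library per condition, and the difference was not tested. The stellate limits also left out the 124 Lrat/Reln+ cells of the fibrosis library, which bears on the stellate ratios. Ccl7, a monocyte chemokine, had a ratio of 3.56 (1.82 to 7.75) in members, from 10 UMIs in 1 normal member and 69 in 7 fibrosis members, and of 0.177 (0.104 to 0.297) in stellate cells. Ctgf (connective tissue growth factor) had 0.177 (0.103 to 0.296) in members and 2.16 (1.61 to 2.95) in stellate cells. Fbn1 (fibrillin 1) had 0.469 (0.392 to 0.56) and 3.51 (2.52 to 5.02), and in fibrosis members its level of 3.95 UMIs per 10000 still lay above the 2.24 of fibrosis stellate cells. Flt4, a VEGF receptor of endothelial cells, had 8.76 (2.25 to 75.3) and 0.284 (0.222 to 0.364), with 0.0633 UMIs per 10000 in normal members and 2.11 in normal stellate cells. The endothelial list, which holds Flt4, summed to 2 and 2.55 UMIs per 10000 in normal and fibrosis members and to 9.4 and 3.39 in stellate cells, and its part was not tested. Igfbp3, a binding protein of insulin-like growth factors, had 0.119 (0.0896 to 0.156) in members, where it went from 9.06 to 1.08 UMIs per 10000, and 3.38 (2.92 to 3.93) in stellate cells, where it went from 3.25 to 11.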

How the results depend on the processing

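No paired analysis was possible because each condition had 1 library. All 30 genes named for the ratio of fibrosis over normal kept their side of 2-fold in every setting that gave a value, though 204 of 688 such values moved by over 1.5 times, and the cause was not tested. These genes were chosen for their extreme ratios in the same libraries, at least 13.8 or at most 0.0375. Keeping their side was thus close to fixed in advance, and it does not bear on genes near 2-fold. Saa3 ranged from 7.25 to 4099. With 37 and 30 cells of 1 mouse each, sums of few UMIs limit the precision of low genes.

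The member cells became 14 normal and 8 fibrosis cells at a mitochondrial share under 5%, 9 fibrosis cells with Lrat plus Reln of 0, 46 without the mesothelial limit and 49 with every cell thinned to 5000 UMIs, and 24 normal cells without those of at least 3 Fndc1 UMIs (added after seeing the data). The other 28 of 34 values stayed within 1.5 times. Genes past 2-fold in members numbered 751 higher and 476 lower. They became 3313 and 188 as UMIs per cell, 367 and 266 from 1 UMI per 10000, and 1834 and 957 with at least 10 UMIs in both groups together. The lower genes became 905 at a mitochondrial share under 5%, 928 with the lymphoid level (under the macrophage limit) subtracted and 1037 with that of all lymphoid cells (added later). UMIs per cell multiply every ratio by 2.39 (log2 1.26), and a median-of-ratios size factor differed from the UMI totals by 1.11 (log2 0.15).

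Against stellate cells of the normal library, 629 higher and 593 lower genes became 359 and 297 from 1 UMI per 10000, 1225 and 1608 with at least 10 UMIs, and 284 and 3184 against stellate cells with Col1a1 of at least 10, which only 1 of the 57 normal ones held, so that these 2 counts compare members with a single cell. The higher became 1386 at a mitochondrial share under 5% and the lower 987 after thinning. In fibrosis, 430 and 517 became 263 and 264 from 1 UMI per 10000 and 1074 and 1899 with at least 10 UMIs. Against the Lrat/Reln+ cells, 145 higher and 141 lower became 302 and 374 at a mitochondrial share under 5%, 342 and 351 with Lrat plus Reln of 0, 275 and 223 without the mesothelial limit, 227 and 319 after thinning, 74 and 91 from 1 UMI per 10000, and 704 and 939 with at least 10 UMIs. The lower became 227 without the endothelial limit.

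As UMIs per cell, list medians were 0.397 for portal fibroblast markers, 3.73 for stellate, 12 for smooth muscle, 13.9 for macrophage, 0.167 for hepatocyte and 6.55 for cycling markers. They were 4.33 for fibrillar and 3.08 for other collagens, 2.26 for elastic fibres, 1.15 for proteoglycans, 4.01 for matricellular genes, 3.86 for collagen processing and 2 for proteases. They were 10.9 for contractile, 0.428 for adventitial, 1.34 for complement, 3.45 for chemokine, 2.41 for growth factor, 1.09 for Wnt and BMP, 5.39 for transcription factor and 3.83 for immediate early genes, and those of elastic fibres, proteoglycans, proteases, complement and Wnt and BMP genes thereby crossed 1. At a mitochondrial share under 5% they were 5.34 for stellate and 9.8 for cycling markers, 2.33 for other collagens, 0.597 for elastic fibres, 1.58 for proteases, 0.525 for chemokines, 1.05 for transcription factors and 0.919 for immediate early genes. With Lrat plus Reln of 0 they were 0.299 for proteoglycans, 0.864 for matricellular, 1.99 for contractile, 0.912 for Wnt and BMP and 2.46 for immediate early genes. Without the mesothelial limit they were 3.27 for smooth muscle, 2.94 for contractile, 0.557 for adventitial, 0.863 for complement and 0.93 for Wnt and BMP genes. After thinning they were 3.87 for macrophage and 12.2 for cycling markers, 1.32 for transcription factors and 1.24 for Wnt and BMP genes, which turned. Without Fndc1 members (added later) they were 0.518 for adventitial genes, 0.91 for chemokines, 1.32 for transcription factors and 1.59 for Wnt and BMP genes, which turned. Wnt and BMP genes stood at 1 with a fibroblast sum of at least 10, 1.12 with Lrat plus Reln of at most 5 and 0.798 with Col1a1 of at least 20. With the lymphoid level subtracted the medians were 21.3 for cycling, 1.09 for matricellular, 7.95 for contractile, 0.093 for adventitial and 12 for immediate early genes, and with that of all lymphoid cells 9.07, 0.977, 0.0946 and 8.27 for cycling, matricellular, adventitial and immediate early genes. Macrophage markers stood at 9.75 with an endothelial sum under 5, and at 3.16 without cells with macrophage UMIs or, added later, with Lyz2 of at least 10. Cycling markers stood at 36 with Col1a1 of at least 20, 5.46 as a mean over cells, 44.6 without the top cell of each library and 61.8 without the deepest members (added later). In normal members 30 of the 31 UMIs of Mki67 were in 1 cell. The other 138 of 172 counts and 412 of 478 list medians stayed within 1.5 times.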

Other observations

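Proliferation genes were found in few members. Of 5 cycling genes, Mki67, Top2a, Cenpf and Birc5 were at least 2-fold higher in fibrosis members, where 16.0% of all genes compared were, with a median ratio of 2.74. That value rested on few cells, since 30 of the 31 UMIs of Mki67 in normal members were in 1 cell, and the median was 44.6 without the top cell of each library for each gene and 61.8 without the deepest member of each (added after seeing the data). Mki67, which marks dividing cells, was found in 2 of 37 normal and 10 of 30 fibrosis members. The list summed to 3.61 UMIs per 10000 in normal and 11.4 in fibrosis members, with at most 36.5 and 60 in a cell, against 6.78 and 6.49 in lymphoid cells.

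Of 3 smooth muscle markers compared, Myh11 and Mylk (myosin light chain kinase, 2.31 to 11.6 UMIs per 10000) were at least 2-fold higher in fibrosis members, where 16.0% of all genes compared were. The list's median was 5.04, or 3.27 without the mesothelial limit. The 6 genes of that list summed to 3.23 and 13.8 in members, to 3.27 and 6.06 in stellate cells and to 13.2 in the Lrat/Reln+ cells. Of 8 immediate early genes, transcription factors and heat shock genes that respond quickly to stimuli, Fos, Fosb and Junb were at least 2-fold higher in fibrosis members and none was lower, where 16.0% and 10.1% of all genes compared were, with a median of 1.6. The median was 0.919 at a mitochondrial share under 5% and 12 with the lymphoid level (under the macrophage limit) subtracted.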
